A study of Homo sapiens with 4 samples.

Results

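The genes described here are 10 genes of follistatin, activin and bone morphogenetic protein (BMP) signalling, taken by symbol from the 29209 genes listed for HaCaT keratinocytes with and without TCN1 overexpression: FST, FSTL1, FSTL3, INHBA, ID1, ID2, ID3, SMAD6, SMAD7 and BAMBI. They were chosen with earlier results of this same comparison known, in which FST was among the genes that differed, so their differences between the lines are a description and carry no test of their own. HaCaT is a spontaneously immortalised human keratinocyte line. The 4 libraries were 2 of HaCaT cells in which a lentivirus had been used to establish overexpression of TCN1, a secreted vitamin B12-binding protein (TCN1_OE), and 2 of HaCaT cells labelled negative control (NC). The labels do not say which vector the control carries, which promoter drives TCN1, or whether either line is a clone. Nothing says that the 2 libraries of a line came from separate cultures, so any spread between them may be technical.

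Activins are dimers of inhibin beta subunits, of which INHBA is one. They bind type II and type I receptors at the cell surface and act through SMAD2 and SMAD3, whereas BMPs act through SMAD1, SMAD5 and SMAD9. Follistatin, the product of FST, wraps around activin outside the cell and keeps it from its receptors. ID1, ID2 and ID3 are helix-loop-helix proteins without a DNA-binding region that are induced by BMPs in many cell types, and SMAD6, SMAD7 and BAMBI are induced inhibitors of the same signalling. In mouse skin, activin is known for its part in wound healing and keratinocyte growth.

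Library totals were 16586500 and 14756073 counts in TCN1_OE and 19973550 and 11593377 counts in NC. Levels are given as FPKM, which divides the fragments of a gene by its length and by the library total, so that genes can be set side by side. TCN1, the check of the labels, stood at 68.3 and 56.6 FPKM in TCN1_OE and at 1.67 and 0.978 FPKM in NC. All 8 keratinocyte markers examined averaged at least 1 FPKM, with a sum of 6844 and 7647 FPKM in TCN1_OE and 6586 and 7185 FPKM in NC. Markers of fibroblasts summed to 1.83 and 2.05 FPKM in TCN1_OE and to 1.89 and 2.15 FPKM in NC. The endothelial, melanocyte and immune lists summed to at most 3.26 FPKM in any library. Of these cells' 24 markers, 18 were listed, and 3 of the 18 averaged at least 1 FPKM. These were COL1A1 at 1.85, VWF at 1.01 and CD14 at 2.34 FPKM, as means of the 4 libraries. All 29209 genes listed had at least 1 count in some library, so none of the 18 could be at 0 in all 4. Mitochondrially encoded genes took 6.04% and 5.65% of the counts in TCN1_OE and 5.33% and 5.13% in NC; the part of this in the differences below was not tested.

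FST had the largest difference between the lines of the 9 members tested, and its level was lower in TCN1_OE. It had 289 and 262 counts in TCN1_OE and 697 and 391 counts in NC, or 6.33 and 6.45 FPKM in TCN1_OE and 12.7 and 12.3 FPKM in NC. Both TCN1_OE libraries lay below both NC libraries, and the libraries of a line lay close together, at 6.39 ± 0.09 FPKM in TCN1_OE and 12.5 ± 0.30 FPKM in NC (SD, n = 2 each), a ratio of 0.513. The log2 fold change was -0.97 ± 0.13 (TCN1_OE over NC, ± SE), from edgeR's quasi-likelihood test fitted to all genes. FST was 1 of 9 members tested to be called at an adjusted p under 0.05, in the lower direction, where 0.212% of the 15113 genes tested were called lower and 0.285% higher. FST was known to be called when the genes were chosen, so nothing is read from that count. With limma on log2 FPKM, which called no gene lower, the log2 fold change was between -0.95 and -0.87 and FST was not called. As these are bulk libraries, fewer cells that express a gene and less RNA per cell cannot be told apart.

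**Figure D1:**
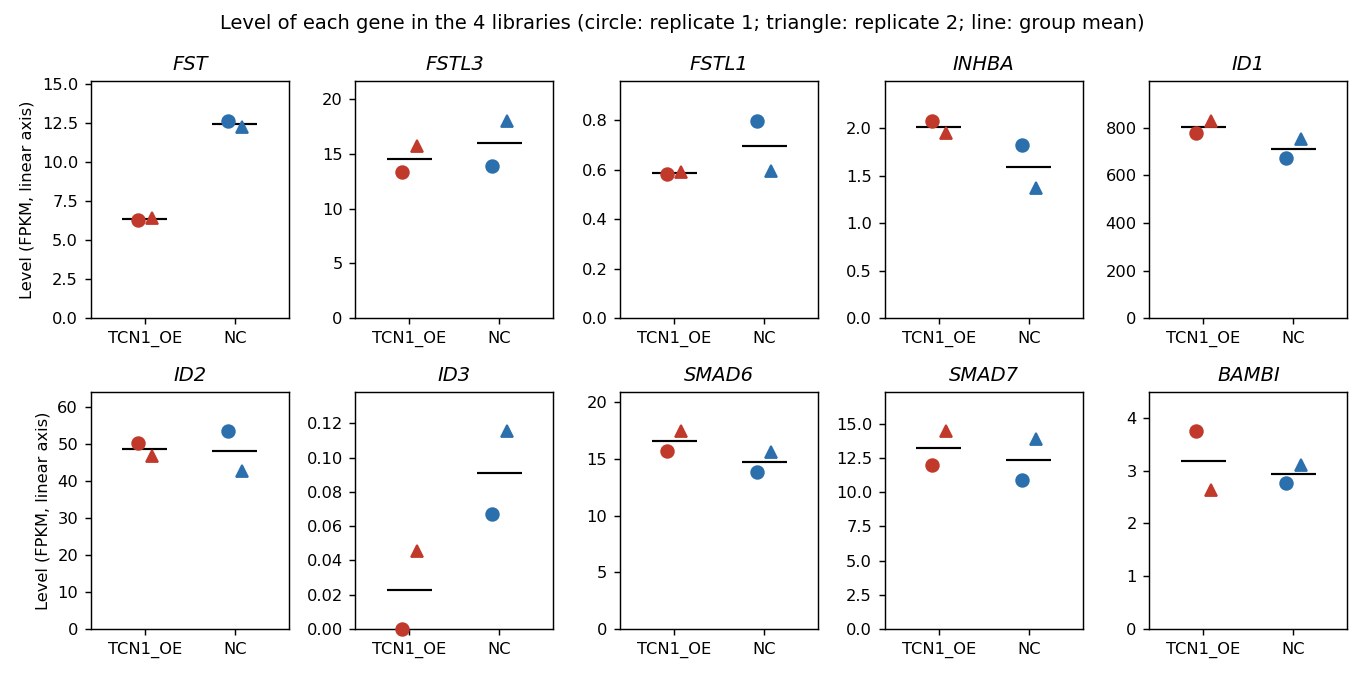
Level of each of the 10 genes in FPKM (linear axes from 0, one panel per gene), with TCN1_OE in red on the left and NC in blue on the right. Points are single libraries and black lines are group means; FST lies at 6.33 and 6.45 FPKM in TCN1_OE, below 12.7 and 12.3 FPKM in NC, while the levels of FSTL3, ID2, SMAD7 and BAMBI overlap between the lines.

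FST (ENSG00000134363) lies on the plus strand of chromosome 5, at 53480409 to 53487134 of GRCh38, and its exons are free of overlap with other annotated genes. Reads of its splice forms, which give a long circulating and a short cell-bound follistatin, are summed in a single count. The nearest tested gene downstream, NDUFS4, a subunit of respiratory complex I that begins 73499 bp beyond FST, had a log2 fold change of -0.01 ± 0.14 (edgeR adjusted p = 0.987). It stood at 32.6 and 27.2 FPKM in TCN1_OE and at 32.8 and 27.04 FPKM in NC. ARL15, a small GTPase gene further downstream, had a log2 fold change of 0.14 ± 0.19 (edgeR adjusted p = 0.822). On the other side, the nearest tested gene, given by its ID alone as ENSG00000285831, was at 0.0692 and 0.0778 FPKM in TCN1_OE and at 0.276 and 0.218 FPKM in NC, with a log2 fold change of -1.75 ± 0.57 that was not called (edgeR adjusted p = 0.236). None of these 3 neighbours was called.

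The genes whose pattern over the 4 libraries was most like that of FST, by the distance between centred log2(FPKM + 0.5) values among 6682 genes, were MTHFD1L (distance 0.17), KRT81 (0.21), URB2 (0.22) and HSPA8 (0.25). MTHFD1L is a mitochondrial enzyme of one-carbon metabolism, URB2 a ribosome assembly factor and HSPA8 a constitutive chaperone. KRT81, a hair keratin, has close paralogs that can share its reads. The likeness is over 4 libraries of the same comparison and mostly restates that these genes, too, were lower in TCN1_OE.

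The other follistatin-type proteins did not separate the lines in the same way. FSTL3, a secreted activin-binding protein that lacks the cell-surface binding of follistatin, had 13.4 and 15.7 FPKM in TCN1_OE and 13.9 and 18.1 FPKM in NC. These ranges overlapped, replicate 2 was the higher library in both lines, and the log2 fold change was -0.13 ± 0.15, not called. FSTL1, a secreted glycoprotein whose name comes from its follistatin-like domain, was weakly expressed, with 91 and 82 counts in TCN1_OE and 150 and 65 counts in NC. In FPKM this was 0.583 and 0.591 in TCN1_OE and 0.798 and 0.596 in NC, so the lower NC library was almost at the TCN1_OE level. Its log2 fold change was -0.26 ± 0.23, not called, and 4.33% of its exonic bases lie under other annotated genes, among them the microRNA gene MIR198 in its own transcript.

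INHBA (chromosome 7, 41667168 to 41705834, minus strand), the subunit that forms activin A, was at a low level that was higher in both TCN1_OE libraries than in either NC library. Its counts were 286 and 239 in TCN1_OE and 301 and 132 in NC, and its levels were 2.08 and 1.96 FPKM in TCN1_OE and 1.82 and 1.37 FPKM in NC. The NC libraries differed from each other by more than the closest libraries of the 2 lines did, and the log2 fold change of 0.32 ± 0.18 was not called. Leaving out NC replicate 2 gave 0.15, leaving out NC replicate 1 gave 0.54, and INHBA was called in neither case. Within each library, FST stood above INHBA, by 3.04 and 3.30 times in TCN1_OE and by 6.97 and 8.92 times in NC (ratios of FPKM levels). The groups did not overlap in this ratio, which averaged 3.17 ± 0.18 in TCN1_OE and 7.94 ± 1.38 in NC (SD, n = 2 each). The smallest p that an exact permutation test (two-sided) allows at this size is 0.333, and no test is given for ratios built on FST.

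The order of the 2 activin-binding proteins FST and FSTL3 was the same in all 4 libraries, with FSTL3 above FST. The ratio of FSTL3 to FST levels was 2.11 and 2.44 in TCN1_OE and 1.09 and 1.47 in NC. Summed, FST and FSTL3 came to 19.7 and 22.2 FPKM in TCN1_OE and 26.6 and 30.3 FPKM in NC. In NC the transcripts were thus closer to parity than in TCN1_OE, and since FSTL3 overlapped between the lines, the difference in both quantities comes mainly from the FST values already given.

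**Figure D2:**
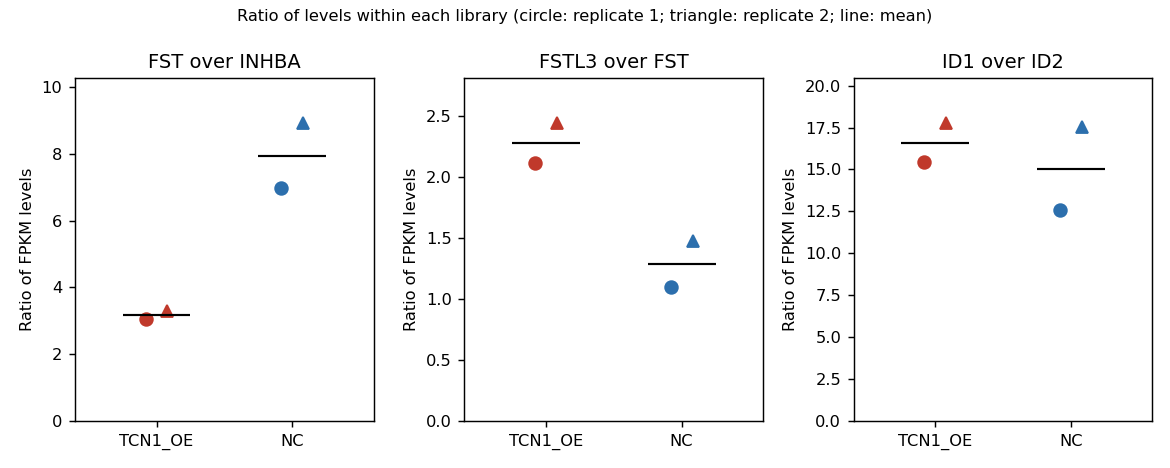
Ratios of FPKM levels within each library (linear axes from 0), for FST over INHBA, FSTL3 over FST and ID1 over ID2, with TCN1_OE on the left and NC on the right. Points are libraries and lines are means; FST over INHBA is 3.04 and 3.30 in TCN1_OE against 6.97 and 8.92 in NC, while ID1 over ID2 overlaps.

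The ID genes differed from each other in level far more than between the lines. ID1 (chromosome 20, 31605283 to 31606515) was among the most abundant transcripts of these cells, ranking 23 of 29209 by mean FPKM, with 778.6 and 829.5 FPKM in TCN1_OE and 672.1 and 750.3 FPKM in NC. Both TCN1_OE libraries lay above both NC libraries, by a margin smaller than the gap between the NC libraries, and the log2 fold change of 0.17 ± 0.09 was not called. ID2 ranked 692, with 50.4 and 46.7 FPKM in TCN1_OE and 53.5 and 42.8 FPKM in NC, and its log2 fold change was 0.01 ± 0.11, with 1.72% of its exonic bases under the antisense gene ID2-AS1. The TCN1_OE libraries fell between the NC libraries. The ratio of ID1 to ID2 levels was 15.4 and 17.8 in TCN1_OE and 12.6 and 17.5 in NC, with overlap.

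ID3, on chromosome 1 at 23557918 to 23559794 of GRCh38, was barely detected. It had 0 and 1 counts in TCN1_OE and 2 and 2 counts in NC, under 3 counts in every library, so no fold is given and no difference was detectable at this depth. For a gene of 1500 bp, close to the 1496 bp that the files use for ID3, 3 counts correspond to 0.121 and 0.136 FPKM in TCN1_OE and 0.1001 and 0.173 FPKM in NC; such floors cover counting error only. ID3 was the member left out of the fit by its low counts. ID4, the remaining ID gene and not a member, stood at 19.6 and 20.3 FPKM in TCN1_OE and at 17.0 and 18.2 FPKM in NC (log2 fold change 0.17 ± 0.10, edgeR adjusted p = 0.528). By mean level the order over the 4 libraries was ID1, ID2, ID4 and ID3, and no neighbours in that order overlapped.

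The inhibitory SMADs were at similar levels to FSTL3. SMAD6 (chromosome 15, 66702228 to 66782848), which acts mainly on BMP signalling, stood at 15.7 and 17.4 FPKM in TCN1_OE and at 13.9 and 15.6 FPKM in NC. The lowest TCN1_OE library was just above the highest NC library, and the log2 fold change of 0.16 ± 0.11 was not called. SMAD7, which inhibits activin, TGF-beta and BMP receptors, stood at 11.96 and 14.5 FPKM in TCN1_OE and at 10.9 and 13.9 FPKM in NC, with overlap and a log2 fold change of 0.09 ± 0.15. For both genes, replicate 2 was the higher library in each line. BAMBI, a pseudoreceptor that lacks the kinase region, had 133 and 83 counts in TCN1_OE and 118 and 77 counts in NC. Its levels were 3.75 and 2.63 FPKM in TCN1_OE, which enclosed the 2.76 and 3.11 FPKM of NC, and its log2 fold change was 0.12 ± 0.24.

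**Figure D3:**
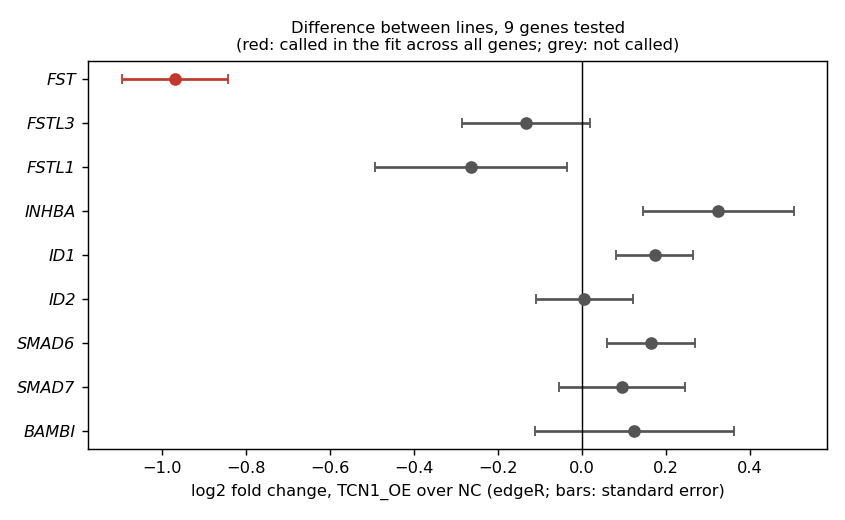
The log2 fold change, TCN1_OE over NC, of the 9 genes tested by edgeR, with bars of 1 standard error; FST, in red, was called in the fit across all genes and the 8 genes in grey were not. FST stands at -0.97 and the other genes lie between -0.26 (FSTL1) and 0.32 (INHBA).

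Over the 9 members tested, 3 had FPKM values in TCN1_OE that were all above NC (INHBA, ID1 and SMAD6), 2 had values that were all below (FST and FSTL1), and 4 overlapped. Of all genes tested, 42.7% did not overlap, 21.7% above and 21.0% below, and since the members were chosen on this comparison nothing is read from their counts. Their median log2 fold change was 0.09, against 0.00 over all genes tested. For the 4 genes that overlapped, FSTL3, ID2, SMAD7 and BAMBI, the sign of the difference depended on which library was left out.

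Because ID1 and SMAD6 are known BMP-responsive genes, the 250 bases before their RefSeq starts (GRCh38.p14, plus strand in both cases) are shown, with matches to the motifs searched in capitals; the last 6 bases for ID1 and the last 8 for SMAD6 are exonic in GENCODE release 29. The stretch of FST shown, 27 bases around the single match found before its RefSeq start, lies inside an annotated FST exon. Coordinates are chr20:31605039-31605288 for ID1, chr15:66701986-66702235 for SMAD6 and chr5:53480459-53480485 for FST.
ID1: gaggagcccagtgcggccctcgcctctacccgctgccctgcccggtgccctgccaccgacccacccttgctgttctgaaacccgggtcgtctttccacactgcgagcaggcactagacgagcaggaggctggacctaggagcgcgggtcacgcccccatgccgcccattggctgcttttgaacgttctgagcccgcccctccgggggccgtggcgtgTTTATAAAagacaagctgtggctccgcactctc
SMAD6: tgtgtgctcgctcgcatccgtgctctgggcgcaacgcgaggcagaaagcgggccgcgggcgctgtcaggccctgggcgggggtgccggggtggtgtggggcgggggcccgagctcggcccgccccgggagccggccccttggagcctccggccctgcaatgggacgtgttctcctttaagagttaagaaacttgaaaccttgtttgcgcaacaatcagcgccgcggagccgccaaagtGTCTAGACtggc
FST: aaatgtcaccTGATTCAcactgaactt

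All 10 members matched the promoter table, and 6 motifs were searched on both strands: GGCGCC, reported for BMP SMADs, the SMAD palindrome GTCTAGAC, TGANTCA as the AP-1 motif, the E-box CACGTG, the cAMP response element TGACGTCA and TATAAA. ID1 held TATAAA on both strands in overlapping positions from -33 to -26, a match found before 10.7% of the 35116 starts in the table. SMAD6 held GTCTAGAC at -12 to -5, which 0.182% of starts have. FST held TGATTCA at -160 to -154, which matches TGANTCA with T at N and is not the strict AP-1 motif. A match to TGANTCA with any base at N was found before 6.57% of starts. GGCGCC, found before 16.4% of starts, occurred 3 times for BAMBI, 2 times for FSTL1 and 1 time for FSTL3. INHBA, FSTL3 and 1 of the 3 windows of SMAD7 held TATAAA as well. The E-box CACGTG, which 6.34% of starts have, and TGACGTCA, which 1.65% have, matched in none of the 12 windows of the 10 genes. The motifs were picked with the values known, and a match is a description of the letters, not of a bound site. Only the 250 bases before each start were searched, so nothing is said of sites further upstream.

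The rest of the pathway was followed in 7 lists with 115 gene symbols that are not members, of which 103 were in the files and 76 were tested. TDGF1 and CRIPTO, which name the same gene, are both among the 115 and were not in the files. None of the 76 was called by edgeR over all genes, where 0.285% of all genes tested were called higher and 0.212% lower. At an unadjusted p under 0.05, 10 of the 76 were higher and 5 lower, where 6.0% of all genes tested were higher and 6.81% lower. The lists, like the members, were chosen with earlier results of this comparison known. Nothing is therefore read from these counts or from those of the single lists below. DESeq2 called 2 of the list genes, BMP3 and BMP7, and limma called 0. Of the 76, 40 lay above 0 and 36 below 0 on the log2 scale, and their median was 0.04. Of all 15113 genes tested, 7608 lay above 0 and 7505 below 0.

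BMP and GDF ligands held the list genes with the smallest p. Of 9 tested, 8 were positive, 0 were called and 3 were higher at an unadjusted p under 0.05. Of all 15113 genes tested, 7608 were positive, and 6.0% were higher at that p. The median log2 fold change of the 9 was 0.32 against 0.00 over all genes. BMP8A, BMP8B, GDF9 and AMH, which enter these counts, averaged under 1 FPKM. As the list was chosen with earlier results of this comparison known, nothing is read from its counts or median. BMP7, the most abundant of them and a ligand of SMAD1, SMAD5 and SMAD9 signalling, stood at 29.4 and 32.7 FPKM in TCN1_OE and at 21.0 and 23.3 FPKM in NC. Its groups did not overlap, and its log2 fold change was 0.49 ± 0.10 (edgeR adjusted p = 0.0776). BMP3, described as an antagonist among the BMPs, stood at 2.496 and 2.52 FPKM in TCN1_OE and at 1.02 and 1.52 FPKM in NC, with a log2 fold change of 1.00 ± 0.22 (edgeR adjusted p = 0.0878). GDF6, a BMP-type ligand, stood at 3.49 and 3.25 FPKM in TCN1_OE and at 1.97 and 2.07 FPKM in NC, with a log2 fold change of 0.74 ± 0.18 (edgeR adjusted p = 0.124). BMP2 had a log2 fold change of 0.32 ± 0.14 (edgeR adjusted p = 0.398). These calls depended on the setting: over all the settings run, the edgeR, DESeq2 or limma adjusted p passed in 6 of 14 for BMP7 and for BMP3.

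**Figure D4:**
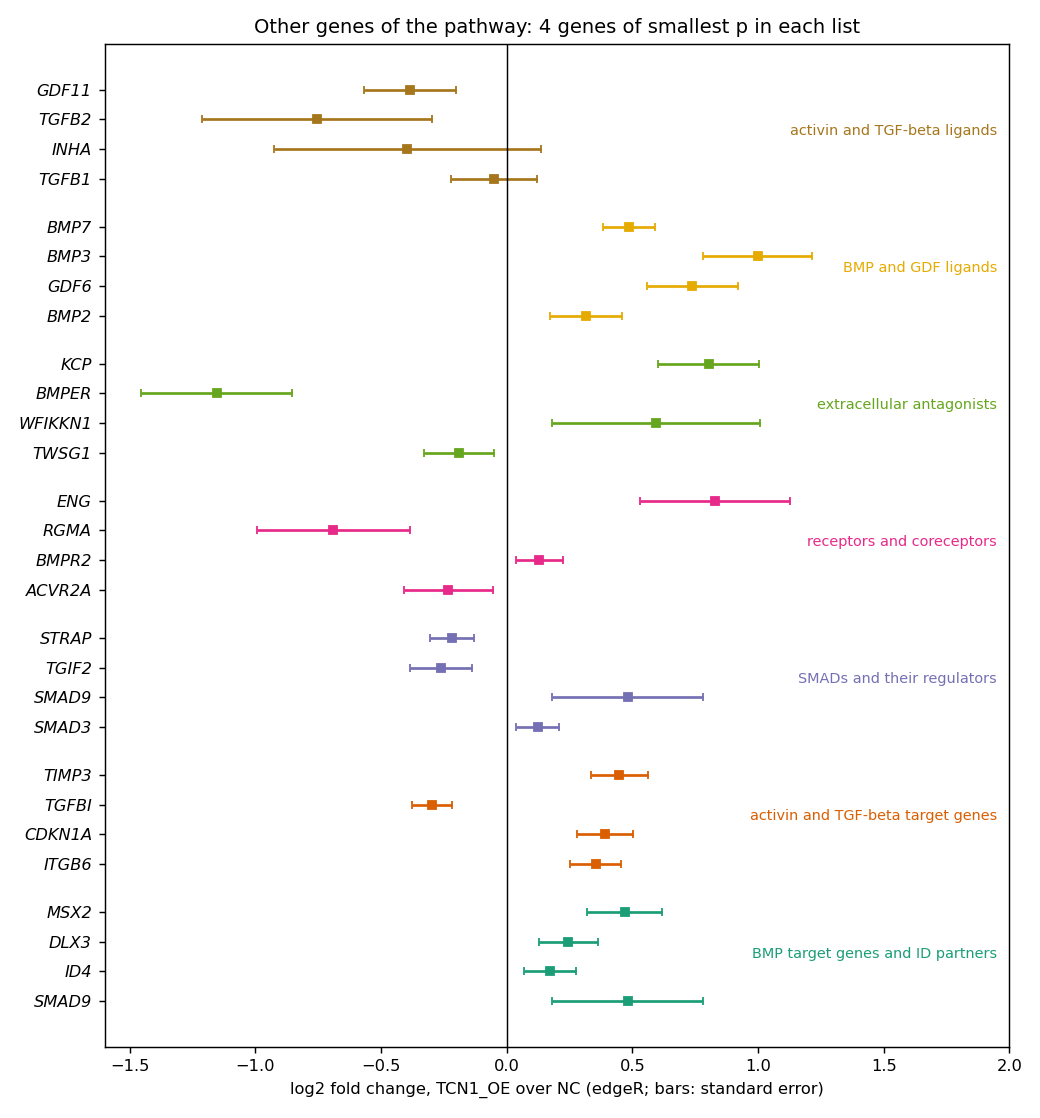
The log2 fold change, TCN1_OE over NC (horizontal axis, squares), of the 4 genes of smallest p in each of the 7 pathway lists, with bars of 1 standard error and 1 colour per list; SMAD9 is in 2 lists. None was called over all genes. The 4 BMP and GDF ligands shown lie between 0.32 and 1.00, and the 4 activin and TGF-beta ligands between -0.75 and -0.05. Picking by smallest p favours larger differences. Over all tested genes of the 2 lists, BMP and GDF ligands lay between -0.17 and 1.27. Activin and TGF-beta ligands lay between -0.75 and 0.04.

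Activin and TGF-beta ligands other than INHBA were mostly weak or close to 0 difference. Of 5 tested, 1 was positive and 4 were negative, with a median of -0.39 and 0 called or with an unadjusted p under 0.05. GDF11, a ligand that follistatin also binds, had a log2 fold change of -0.39 ± 0.18, at 1.09 and 0.986 FPKM in TCN1_OE and 1.28 and 1.43 FPKM in NC. TGFB1 stood at 10.1 and 12.7 FPKM in TCN1_OE and at 10.2 and 13.6 FPKM in NC. The second activin beta subunit gene of many tissues, INHBB, was at 2 and 0 counts in TCN1_OE and 1 and 6 counts in NC and was not tested.

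Among 8 tested extracellular modulators of the list of antagonists, which includes the follistatin-like gene FSTL4 and none of the members, 5 were positive and 3 negative and 0 were called. KCP, which enhances BMP signalling in mouse kidney, stood at 1.18 and 1.52 FPKM in TCN1_OE and at 0.704 and 0.847 FPKM in NC, with a log2 fold change of 0.80 ± 0.20 (edgeR adjusted p = 0.128). BMPER, a BMP-binding protein, went the other way at low level, with 0.219 and 0.288 FPKM in TCN1_OE and 0.639 and 0.475 FPKM in NC (log2 fold change -1.15 ± 0.30, edgeR adjusted p = 0.142). NBL1 was the most abundant antagonist of the list, at 28.4 and 36.1 FPKM in TCN1_OE and at 26.7 and 30.4 FPKM in NC; 17.8% of its exonic bases lie under other genes. The BMP antagonist noggin (NOG) was listed at 0 and 0 counts in TCN1_OE and at 6 and 0 counts in NC. NBL1, NOG, FSTL4 and, above, INHBB are named outside the rule on smallest p.

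Receptors of both branches were detected. Of 13 tested, 5 were positive, 8 negative and 0 called. The activin type I receptor ACVR1B stood at 9.11 and 10.1 FPKM in TCN1_OE and at 8.84 and 9.16 FPKM in NC. The activin type II receptor ACVR2A stood at 2.27 and 1.79 FPKM in TCN1_OE and at 2.39 and 2.37 FPKM in NC, with a log2 fold change of -0.23 ± 0.18 (edgeR adjusted p = 0.636). BMPR2, the BMP type II receptor, stood at 12.9 and 11.4 FPKM in TCN1_OE and at 11.04 and 11.2 FPKM in NC, and BMPR1A at 7.18 and 6.14 FPKM in TCN1_OE and 6.95 and 7.08 FPKM in NC. The coreceptor gene ENG had a log2 fold change of 0.83 ± 0.30 (edgeR adjusted p = 0.278) at under 1 FPKM. Another coreceptor gene, RGMA, also under 1 FPKM, went the other way, at -0.69 ± 0.30 (edgeR adjusted p = 0.382). ACVR1B and BMPR1A were named after their values were seen.

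Of 18 SMADs and regulators tested, 7 were positive, 11 negative and 0 called, and all lay between -0.26 and 0.48 on the log2 scale. SMAD3, at 48.6 and 49.9 FPKM in TCN1_OE and 43.3 and 46.9 FPKM in NC, had the highest level of the SMADs listed, with a log2 fold change of 0.12 ± 0.09. SMAD5 was the most abundant BMP SMAD, at 12.3 and 11.96 FPKM in TCN1_OE and 12.1 and 12.7 FPKM in NC, a log2 fold change of -0.03 ± 0.09. STRAP, which binds SMAD7 at the receptor, stood at 62.7 and 61.7 FPKM in TCN1_OE and at 73.5 and 70.8 FPKM in NC (-0.22 ± 0.09, edgeR adjusted p = 0.324).

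Target genes went both ways. Of 14 activin and TGF-beta targets tested, 8 were positive, 6 negative and 0 called. At an unadjusted p under 0.05, 4 were higher and 2 lower, where 6.0% of all genes tested were higher and 6.81% lower. The list was chosen with earlier results of this comparison known, and nothing is read from these counts. TGFBI, a secreted matrix protein, stood at 85.4 and 83.5 FPKM in TCN1_OE and at 103.1 and 104.2 FPKM in NC (-0.30 ± 0.08, edgeR adjusted p = 0.148). In the other direction, TIMP3, a metalloproteinase inhibitor, had a log2 fold change of 0.45 ± 0.11 and CDKN1A, the cell cycle inhibitor p21, one of 0.39 ± 0.11 (edgeR adjusted p = 0.138 and 0.179). The feedback genes SKIL and PMEPA1 had log2 fold changes of -0.05 ± 0.10 and -0.14 ± 0.11. CCN2, another target, was at 4 and 7 counts in TCN1_OE and 4 and 4 counts in NC and was not tested.

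BMP targets and the E proteins that ID proteins bind were tested for 12 genes, with 7 positive, 5 negative and 0 called. MSX2, a homeobox gene induced by BMPs, stood at 9.08 and 8.96 FPKM in TCN1_OE and at 6.60 and 6.40 FPKM in NC, a log2 fold change of 0.47 ± 0.15 (edgeR adjusted p = 0.224). DLX3, a homeobox gene of the differentiating epidermis, had one of 0.24 ± 0.12 (edgeR adjusted p = 0.429). The E protein genes TCF3 and TCF12 stood at -0.19 ± 0.14 and -0.13 ± 0.10. By mean FPKM over the 4 libraries, TCF3 at 21.2 and TCF12 at 11.99 were far below ID1 at 757.6. SKIL, PMEPA1, CCN2, SMAD5, TCF3 and TCF12 were named for their roles, after their values were seen.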

How the data were processed

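PolyA RNA of 4 HaCaT libraries was sequenced on an Illumina NovaSeq X Plus from a kit that does not mark strand, per the labels' protocols. Per the submitters' processing notes, HISAT2 and HTSeq 0.13.5 were used with GRCh38; the sources used here do not give the annotation release or the options of the counting step. The authors deposited a raw count and an FPKM value per gene, per the file headers; the deposited FPKM equals count divided by gene length and by the sum of listed counts, on the usual FPKM scale, for 100% of values above 0, with 1 gene length per gene whole within 1e-04 bp.

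Counts were tested with edgeR 4.0.16 (R 4.3.3; TMM, filterByExpr, robust quasi-likelihood, group as the only term, 15113 genes kept, Benjamini-Hochberg over all of them, threshold 0.05). A called gene passed this threshold. The SE is the log2 fold change divided by the square root of F. Alternatives were other scaling factors, other filters, DESeq2 1.42.0, limma 3.58.1 on log2(FPKM + 0.1, 0.5 or 1), a replicate block and leaving out each library. The edgeR step was tested on simulated counts.

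The members and the pathway lists were chosen with earlier results of these data known. All members are named, and up to 4 genes per list of smallest p; other names are said to be outside this rule. The values of 1 list gene that enters the counts are not reported here. Of the symbols in the pathway and marker lists, 18 were not among the genes used here. Gene positions and overlaps are from GENCODE release 29, and promoter sequences from RefSeq (GRCh38.p14).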

Additional observations from a re-analysis of the deposited data

How the results depend on the processing

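FST kept its direction in all 14 settings, with a log2 fold change between -0.997 and -0.87. With all 4 libraries, FST was called in each edgeR setting and with DESeq2, and not in the 3 with limma, where 0 members were called. All settings use the same libraries, and FST was known to be called when the genes were chosen. They show how far the estimate depends on processing and are no separate support for it. Over all genes, 43 were higher and 32 lower. The counts were 78 and 53 with upper-quartile factors, 200 and 275 without a filter, 95 and 109 with DESeq2, and 1 and 0 with limma at each pseudocount; 14 were lower among genes of at least 1 FPKM. Leaving out a library gave 104 to 188 higher and 106 to 142 lower genes, 1 member called each time, and 0 to 5 list genes. List genes called were 1 with upper-quartile factors (BMP7), 5 without a filter (BMP3, BMP7, BMPER, CDKN1A and KCP) and 2 with DESeq2.

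With the replicate block, 1216 genes were higher and 1655 lower, 3 members were called (FST, ID1 and SMAD6) and 22 list genes. The labels do not say that the numbers pair the samples. With 2 pairs, the correlation of same-numbered deviations was 0.150. On the second principal component of the log2 counts (33.2% of variance), replicate 1 lay at -12.76 in TCN1_OE and -26.13 in NC. Replicate 2 lay at 23.3 in TCN1_OE and 15.6 in NC, so the numbers separated there in both lines. What this separation reflects was not tested, and the replicate block is given as no more than an alternative fit.

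Leaving out a library moved the log2 fold change across 0 for ID2 (-0.14 to 0.17), SMAD7 (-0.081 to 0.28), FSTL3 (-0.32 to 0.069), BAMBI (-0.15 to 0.34) and TGFB1 (-0.26 to 0.17). ID2 also turned, to -0.012, without a filter. The cause of these changes was not tested. Depth limits ID3, which lay under 3 counts in every library, and BAMBI and FSTL1, which had 65 to 150 counts.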
